A study of Mus musculus with 3 samples.

Results

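The BCL2 family was examined as 10 genes, chosen by symbol, among the 37224 Ensembl gene IDs counted in each library. They are the pro-survival genes Bcl2, Bcl2l1 and Mcl1, the effectors Bax and Bak1, and the BH3-only genes Bcl2l11, Bbc3, Pmaip1, Bid and Bad. All 10 were found and all 10 reached the minimum level of 5 CPM (reads per 1000000 reads on genes, TMM-scaled) in every comparison. The 3 RNA-seq libraries, with 1 library per population, came from leukocytes of the gut epithelium of RAG-2 null mice, a genotype that every population shared and that leaves no mature T or B cells. The iCD8a cells were sorted as CD45+CD8alpha+, the ILC1 (group 1 innate lymphoid cells) as NKp46+NK1.1+, and the CD11b+ myeloid cells as CD45+CD8alpha-CD11b+. No treatment, age or number of mice per library is given in the sources used here. Without replicates no difference could be tested between populations, and every interval below covers counting error alone.

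Reads on genes numbered 21678113 in iCD8a, 22181660 in ILC1 and 30511296 in CD11b+. The gate markers followed the labels, with Cd8a at 2636 CPM in iCD8a but 4.41 for ILC1 and 28.3 for CD11b+, Ncr1 (NKp46) at 396 CPM in ILC1 against 1.44 in iCD8a and 2.23 in CD11b+, and Itgam (CD11b) at 845 CPM in CD11b+ against 362 in iCD8a and 187 in ILC1. Klrb1c (NK1.1), the other marker of the ILC1 gate, separated ILC1 from iCD8a less sharply than Ncr1 did. ILC1 had 546 CPM of Klrb1c, 2.63-fold above the 207 of iCD8a (2.55 to 2.72), while CD11b+ had 14.7. Rag2 had 0 counts in each library. The CD11b+ library was also the richest in intestinal epithelial markers, where 20 genes summed to 2482 CPM against 909 in iCD8a and 530.3 in ILC1, and in mitochondrially encoded RNA, at 9.53% of gene counts against 1.6% and 2.09%. Of the 12 granulocyte and mast cell markers, Ly6g, Mpo, Camp, Epx and Prg2 were at 0 in iCD8a and ILC1, and Ly6g alone was at 0 in CD11b+, with sums of 161, 944 and 329.8 CPM for iCD8a, ILC1 and CD11b+, of which Kit alone gave 150.1, 934 and 170.5. Of these markers 1 was higher in ILC1 than in CD11b+, by the rule for genes called apart given below, and 3 were lower. The 12 natural killer and ILC1 markers summed to 41166, 5701 and 3351 CPM, and Gzma and Gzmb gave 25743 and 14623 CPM of the iCD8a sum. By count, 8 of the 12 were higher in ILC1 than in iCD8a and 2 were lower, and the list's median (log2, iCD8a over ILC1) was -4.62. In the same order the 11 T cell markers to 5570, 674 and 307, the 8 B and plasma cell markers to 497, 295 and 182, and the 16 macrophage and dendritic cell markers to 2609, 2937 and 42258. Ms4a1 and Pax5 were at 0 in iCD8a and ILC1, and Pax5 in CD11b+. Because the libraries are bulk RNA, fewer cells of a type and less RNA per cell cannot be told apart.

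Proteins of this family decide whether the outer mitochondrial membrane is opened during apoptosis. BAX and BAK form the pores, BCL-2, BCL-XL (from Bcl2l1) and MCL-1 hold them in check, and BH3-only proteins such as BIM (Bcl2l11), PUMA (Bbc3), NOXA (Pmaip1), BID and BAD relay stress or cytokine loss by binding the guardians or the effectors. In lymphocytes the balance of BCL-2 and BIM is a well known point of control, and signalling from interleukin 15 keeps natural killer cells and intraepithelial lymphocytes alive through this family. NOXA binds MCL-1 with preference, and many myeloid cells are known to rely on MCL-1.

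The promoters of 4 members are shown because these genes separated CD11b+ from the iCD8a and ILC1 libraries, called lymphoid below: Bcl2 and Bcl2l11 were higher in both lymphoid libraries than in CD11b+, and Mcl1 and Bak1 were higher in CD11b+ than in both lymphoid libraries. Pmaip1 separated them too, and its promoter is not shown. Each run is the 250 bases before a RefSeq start site on GRCm38.p6, 5′ to 3′ on the gene's strand. Bcl2l11 has 2 start sites in that table, and the upstream one is shown. Capitals mark matches, on either strand, to 8 short motifs. A match to the forkhead factors of the FOXO group was the run GTAAACA without a mismatch. For STAT factors, which act below cytokine receptors, it was TTCNNNGAA with any base at N. ETS family factors were read from CCGGAAG, and their myeloid and lymphoid relative PU.1 was read from GAGGAAG in the same way. The AP-1 site searched was TGACTCA and nothing shorter. A GC box, which Sp1 binds, was GGGCGG, and the CCAAT box was searched under its own letters. For p53 the search took CATG repeated after 6 bases of any kind.
Bcl2, chr1:106714291-106714540, minus strand: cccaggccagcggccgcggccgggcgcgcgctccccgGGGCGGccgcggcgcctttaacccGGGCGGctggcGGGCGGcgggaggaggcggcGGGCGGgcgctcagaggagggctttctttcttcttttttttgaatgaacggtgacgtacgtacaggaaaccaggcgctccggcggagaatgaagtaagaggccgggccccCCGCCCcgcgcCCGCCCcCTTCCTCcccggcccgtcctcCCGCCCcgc
Bcl2l11, chr2:128125788-128126037, plus strand: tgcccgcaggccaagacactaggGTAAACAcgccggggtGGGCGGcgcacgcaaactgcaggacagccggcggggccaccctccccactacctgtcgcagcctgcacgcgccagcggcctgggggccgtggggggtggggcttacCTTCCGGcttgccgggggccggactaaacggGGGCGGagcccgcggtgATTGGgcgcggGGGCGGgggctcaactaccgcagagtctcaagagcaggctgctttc
Mcl1, chr3:95658471-95658720, plus strand: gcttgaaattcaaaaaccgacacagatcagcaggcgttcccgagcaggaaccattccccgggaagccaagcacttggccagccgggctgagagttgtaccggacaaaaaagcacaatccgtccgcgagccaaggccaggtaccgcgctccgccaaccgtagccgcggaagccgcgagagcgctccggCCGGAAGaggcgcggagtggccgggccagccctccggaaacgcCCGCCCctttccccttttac
Bak1, chr17:27028628-27028877, minus strand: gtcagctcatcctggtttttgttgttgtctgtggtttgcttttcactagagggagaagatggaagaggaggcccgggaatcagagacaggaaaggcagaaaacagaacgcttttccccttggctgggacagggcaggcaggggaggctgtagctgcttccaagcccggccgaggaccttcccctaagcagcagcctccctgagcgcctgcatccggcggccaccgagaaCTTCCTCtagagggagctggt
The Bcl2 window held 7 GC boxes and a PU.1 match, and its GC content was 74.8%. The Bcl2l11 window shown held a FOXO match from base -227 to -221, an ETS match, a CCAAT box and 3 GC boxes, with a GC content of 72%. The downstream Bcl2l11 window held neither a FOXO nor an ETS match. FOXO letters stood in 2 member windows, the Bcl2l11 window shown and a window of Bbc3. In the Mcl1 window there were an ETS match from base -63 to -57 and 1 GC box, and in the Bak1 window a PU.1 match from base -21 to -15. The median GC content over all 32851 windows was 52.4%. FOXO letters stood in 3.17% of all windows, ETS letters in 6.91%, PU.1 letters in 10.6%, GC boxes in 32.7% and CCAAT boxes in 33.8%. Over the 15 windows of the 9 members read, STAT letters (7.02% of all windows), AP-1 letters (4.46%) and p53 letters (0.49%) had 0 matches. These matches describe letters and not bound sites, and no motif overlapped another in the 4 runs shown.

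Among the pro-survival genes, Bcl2 (ENSMUSG00000057329) was higher in the lymphoid libraries. TMM factors adjust library sizes for composition. Bcl2 stood at 676 CPM in iCD8a and 513 in ILC1, and at 69.6 CPM in CD11b+. The 2 lymphoid libraries were high and close, and CD11b+ was low. The fold was 9.72 between iCD8a and CD11b+ (95% exact counting interval 9.28 to 10.2), 7.37 between ILC1 and CD11b+ (7.02 to 7.73) and 1.32 between iCD8a and ILC1 (1.29 to 1.35). The log2 ratio of iCD8a over CD11b+ for Bcl2 lay above that of 98.3% of the 10821 genes tested.

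Mcl1 (ENSMUSG00000038612), whose protein is short-lived and needs constant synthesis, had the opposite order. It stood at 368 CPM for iCD8a, 509 for ILC1 and 1318 for CD11b+. CD11b+ was 3.58-fold above iCD8a (3.5 to 3.67) and 2.59-fold above ILC1 (2.53 to 2.64), and ILC1 was 1.38-fold above iCD8a (1.35 to 1.42). Bcl2l1, which encodes BCL-XL, was high in ILC1 alone, at 129.8 CPM against 43.7 in iCD8a and 49.3 in CD11b+. That was 2.97-fold above iCD8a (2.77 to 3.2) and 2.63-fold above CD11b+ (2.47 to 2.81), whereas iCD8a and CD11b+ lay 1.13-fold apart (1.04 to 1.22). Each of the 3 guardians thus had its highest level in a different library.

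**Figure D1:**
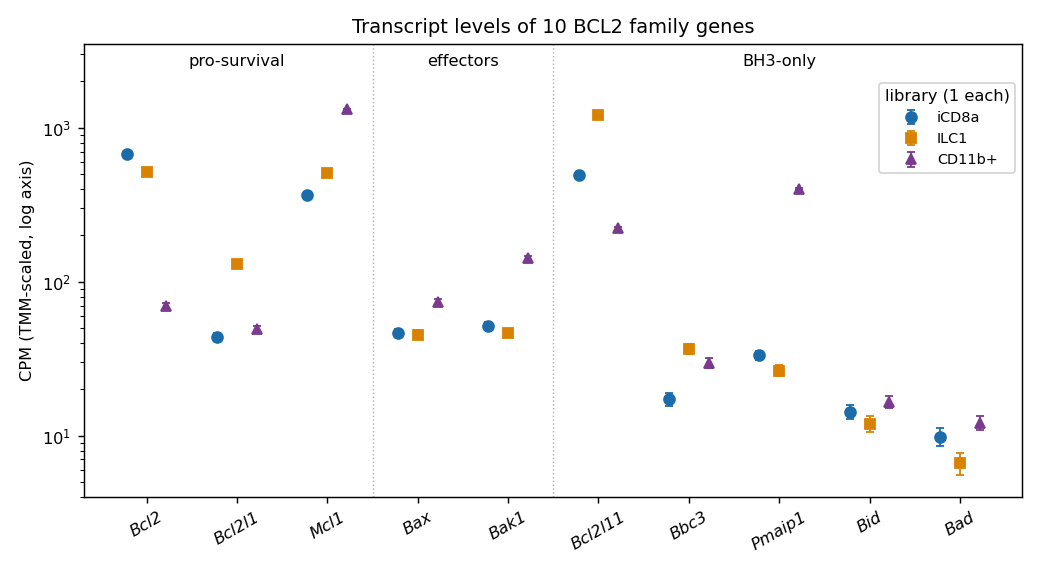
CPM (TMM-scaled, log axis) of the 10 members in the 3 libraries, 1 point per library, with 95% exact Poisson counting intervals as bars. Bcl2 is lowest in CD11b+ (69.6), Mcl1 (1318) and Pmaip1 (399) are highest there, and Bcl2l11 is highest in ILC1 (1203).

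The BH3-only gene Bcl2l11, which encodes BIM, was apart in all 3 comparisons, the only member of the 10 to be so. It reached 1203 CPM in ILC1, 489.9 in iCD8a and 223 in CD11b+. ILC1 was 5.4-fold above CD11b+ (5.25 to 5.55) and 2.46-fold above iCD8a (2.4 to 2.51), and iCD8a was 2.2-fold above CD11b+ (2.13 to 2.27). Pmaip1, which encodes NOXA, was high in CD11b+ alone. Its levels were 33.3 CPM for iCD8a, 26.4 for ILC1 and 399 for CD11b+, so CD11b+ was 12-fold above iCD8a (11.1 to 12.9) and 15.1-fold above ILC1 (13.9 to 16.5). These were the widest folds of any member, and its log2 ratio of ILC1 over CD11b+ exceeded that of 5.82% of 10734 genes tested.

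Bbc3, which encodes PUMA, a target of p53 and FOXO factors, was lowest in iCD8a. It stood at 17.2 CPM there against 36.6 in ILC1 and 29.6 in CD11b+. ILC1 was 2.13-fold above iCD8a (1.89 to 2.4), a gap that fell to 1.94-fold when libraries were scaled by total count alone. Bid, which links death receptors and granzyme B to mitochondria, was low throughout, at 14.3 CPM for iCD8a, 11.9 for ILC1 and 16.6 for CD11b+. Bad, which growth factor signalling holds inactive, came to 9.82 CPM for iCD8a, 6.59 for ILC1 and 12.1 for CD11b+. Neither passed the rule given below in any comparison, and the widest of their folds was 1.83 for Bad between CD11b+ and ILC1 (1.51 to 2.24). Counts of Bid and Bad are uncertain, because 17.7% of the exon bases of Bid overlap Bcl2l13 and 20.5% of those of Bad overlap Gpr137, on the opposite strand, and the strand setting of the counting is not given.

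Of the effectors, Bak1 was higher in CD11b+ than in both lymphoid libraries and Bax passed the rule in 0 comparisons. Bax, whose protein moves from the cytosol to mitochondria when activated, stood at 46.5 CPM for iCD8a, 45.3 for ILC1 and 73.4 for CD11b+. Its levels in both lymphoid libraries did not differ detectably at this depth (fold 1.03, 0.941 to 1.12), and CD11b+ was 1.58-fold above iCD8a (1.47 to 1.7) and 1.62-fold above ILC1 (1.5 to 1.75). Bak1, whose protein already sits in the mitochondrial membrane, stood at 51.7, 46.2 and 143 CPM in that order. CD11b+ was 2.76-fold above iCD8a (2.59 to 2.94) and 3.09-fold above ILC1 (2.88 to 3.31), while iCD8a and ILC1 lay 1.12-fold apart (1.03 to 1.22). Exons of Bak1 overlap Ggnbp1 on the opposite strand over 18.2% of their bases, which leaves its counts uncertain in the same way, and Ggnbp1 itself had 29, 44 and 76 counts.

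A gene was called apart between 2 libraries if 3 conditions held: a fold of 2 or more, an interval whose bound nearer to 1 was 1.5 or more, and a level of 5 CPM or more in the higher library. Between iCD8a and ILC1, 3 of the 10 members were apart, Bcl2l1, Bcl2l11 and Bbc3, against 20.3% of the 10110 genes tested. All 3 were higher in ILC1, as were 10.8% of genes, and 0 members were higher in iCD8a (9.49% of genes). Of 20 listed genes of the early response to stimulation or tissue dissociation, 15 were also apart with the higher level in ILC1, and the list summed to 17375 CPM in that library and 6471 in iCD8a. Their part in the 3 calls was not tested. The median log2 ratio of iCD8a over ILC1 was 0.1 over the members and 0.04 over all 13649 genes that reached 1 CPM somewhere.

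Between iCD8a and CD11b+, 5 of 10 members were apart against 37.2% of 10821 genes. Bcl2 and Bcl2l11 were higher in iCD8a (16.7% of genes were), and Mcl1, Bak1 and Pmaip1 in CD11b+ (20.6% of genes were). The median log2 ratio was -0.48 over the members and 0.04 over all genes. Scaling by total count alone moved the share of apart genes that were higher in iCD8a from 44.7% to 57% and the median over tested genes from 0.08 to 0.33, and the same 5 members stayed apart. Between ILC1 and CD11b+, 6 of 10 were apart against 38.0% of 10734 genes. Bcl2, Bcl2l1 and Bcl2l11 were higher in ILC1 (17.0% of genes were) and Mcl1, Bak1 and Pmaip1 in CD11b+ (20.9% of genes were), and the median was -0.59 over the members and 0 over all genes. The comparisons share libraries, so the recurrence of a member across them is not independent.

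Epithelial markers were apart in the same direction as Mcl1, Bak1 and Pmaip1. They were higher in CD11b+ for 17 of 20 genes against iCD8a and for 19 of 20 against ILC1, with median log2 ratios of -3.08 and -3.1. Macrophage and dendritic cell markers, which the gate selects for, were higher in CD11b+ for 13 of 16 and 12 of 16. Early response and dissociation genes were higher in CD11b+ than in iCD8a for 13 of 20, while between ILC1 and CD11b+ 5 were higher in CD11b+ but 4 in ILC1 (median 0 on the log2 scale). The part of epithelial or early response RNA in the levels of these 3 members was not tested. All 3 were also apart with mitochondrially encoded genes removed, but this alters only the scaling of the libraries. The part of the higher mitochondrial share of CD11b+ in their levels was not tested. At a fold of 4 and a near bound of 2, 0 members were apart between iCD8a and ILC1, against 8.41% of genes (3.52% higher in iCD8a and 4.89% higher in ILC1). Between iCD8a and CD11b+, where 19.5% of genes were, Bcl2 was higher in iCD8a (6.13% of genes) and Pmaip1 in CD11b+ (13.4% of genes). Between ILC1 and CD11b+, where 19.0% of genes were, Bcl2 and Bcl2l11 were higher in ILC1 (6.01% of genes) and Pmaip1 in CD11b+ (13.0% of genes).

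**Figure D2:**
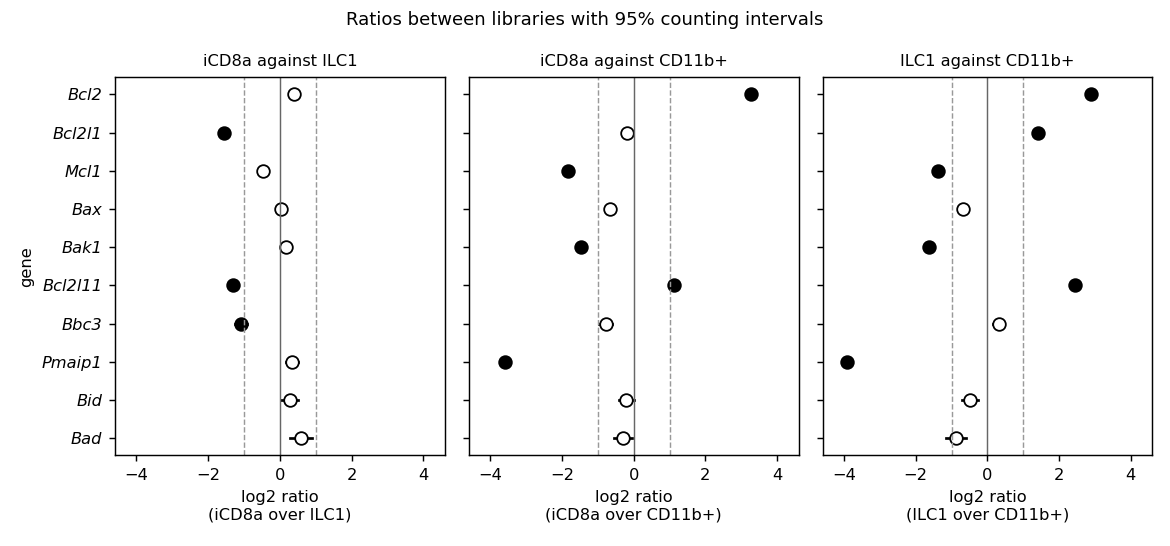
Log2 ratios of the 10 members in the 3 comparisons, with 95% exact counting intervals as horizontal bars, filled points for genes apart by the 2-fold rule and dashed lines at a 2-fold difference. The panels hold 3, 5 and 6 filled points, and Pmaip1 lies farthest to the CD11b+ side in both panels that contain this library.

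Levels of different genes were compared per exon length, as transcripts per 1000000 (TPM) over the union of a gene's exons. TPM was not TMM-scaled and its total includes mitochondrially encoded genes, so it serves to compare genes within a library. Between libraries it departs from CPM, as for Mcl1 in iCD8a and CD11b+, at 364 and 928 TPM but 368 and 1318 CPM. In iCD8a the order began with Mcl1 (364 TPM), Bcl2 (249.9) and Bcl2l11 (206), and the last of these exchanged places with Bcl2 when the longest transcript was used as the length. In ILC1, Bcl2l11 (521 TPM) and Mcl1 (519) led and lay close, although with the longest transcript they stood at 647 and 404, followed by Bcl2 (195), Bax (100.1) and Bcl2l1 (98.5). In CD11b+, Mcl1 (928 TPM) was far ahead of Pmaip1 (351), Bak1 (143) and Bax (112), and Bcl2 stood at 18.3, above Bad (11.4) and Bid (11.2) alone. Bad and Bid were the last members in each library.

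Summed over Bcl2, Bcl2l1 and Mcl1, pro-survival transcripts came to 646 TPM for iCD8a, 812 for ILC1 and 972 for CD11b+. These sums are not TMM-scaled, so their size is not compared between libraries. The make-up of the sum differed. Mcl1 made up 56.4% of it in iCD8a, 63.9% in ILC1 and 95.5% in CD11b+, while Bcl2 made up 38.7%, 24% and 1.88%, and Bcl2l1 4.98%, 12.1% and 2.66%. These shares depend on the length used, and with the longest transcript Bcl2l1 came to 7.77%, 18.7% and 4.63%. The order of the libraries for each gene was the same with either length.

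The 5 BH3-only genes summed to 302 TPM for iCD8a, 636 for ILC1 and 474 for CD11b+. Without TMM scaling, the order of ILC1 and CD11b+ in these sums need not hold on the CPM scale. These sums and shares, like those of the effectors, were formed after the levels had been seen. Bcl2l11 made up 68.4% in iCD8a and 82% in ILC1 but 14.1% in CD11b+. Pmaip1 made up 74.1% in CD11b+, against 13.7% in iCD8a and 5.28% in ILC1. The leading BH3-only transcript therefore changed from Bcl2l11 in both lymphoid libraries to Pmaip1 in the myeloid library, and with the longest transcript as length these shares were 74.1%, 85.9% and 20% for Bcl2l11 and 9.3%, 3.48% and 66% for Pmaip1. Bax and Bak1 summed to 173, 167 and 255 TPM. Bax was the larger part in iCD8a (57.9%) and ILC1 (60%), and in CD11b+ its part was 44%, or 52.8% with the longest transcript, so which effector led there depends on the length used.

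**Figure D3:**
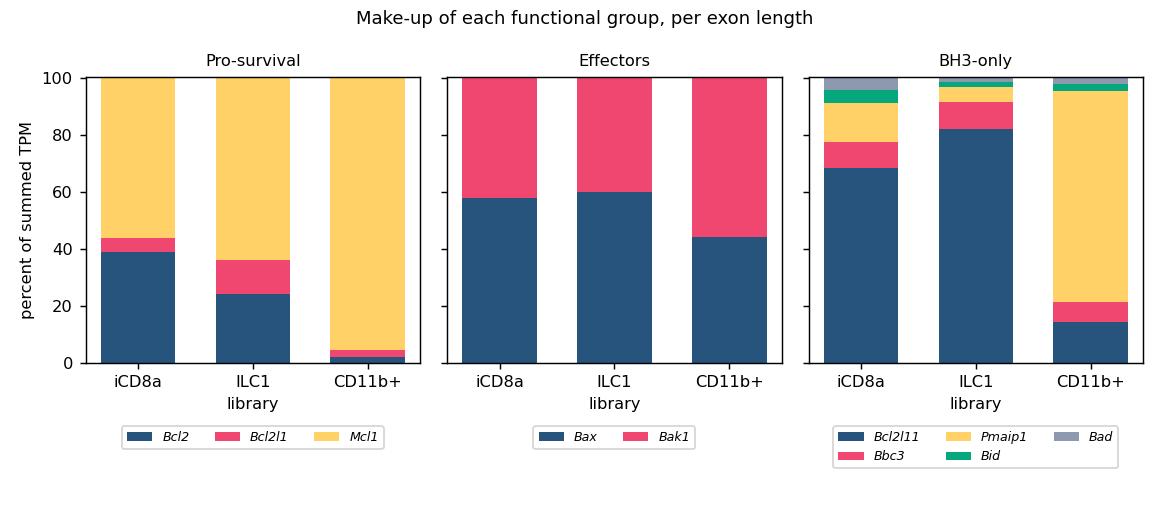
Percent of summed TPM that each gene took within the pro-survival, effector and BH3-only groups, as stacked bars for the 3 libraries. Mcl1 fills 95.5% of the pro-survival bar and Pmaip1 74.1% of the BH3-only bar in CD11b+, and Bcl2l11 fills 82% of the BH3-only bar in ILC1.

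Ratios of 2 members within a library need no scaling of library size, and their change between libraries needs no gene length. The Bcl2 count was 1.38 times the Bcl2l11 count in iCD8a (1.35 to 1.41), 0.426 times in ILC1 (0.417 to 0.436) and 0.312 times in CD11b+ (0.297 to 0.329). The ratio was 3.24-fold higher in iCD8a than in ILC1 (exact conditional interval 3.14 to 3.35) and 4.42-fold higher than in CD11b+ (4.18 to 4.68). Bcl2 itself was 1.32-fold higher in iCD8a than in ILC1, and Bcl2l11 was 2.46-fold higher in ILC1. The 3.24-fold difference of the ratio is the product of both.

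Mcl1 and Pmaip1, which encode a guardian and a BH3-only protein that binds it with preference, were both highest in CD11b+, yet not in proportion. The Mcl1 count was 11.1 times that of Pmaip1 in iCD8a (10.3 to 11.9), 19.3 times in ILC1 (17.8 to 21) and 3.3 times in CD11b+ (3.24 to 3.38). The ratio was 5.85-fold higher in ILC1 than in CD11b+ (5.36 to 6.39) and 3.34-fold higher in iCD8a than in CD11b+ (3.1 to 3.61). The ratio of Bcl2 to Mcl1 counts was 1.84 in iCD8a, 1.01 in ILC1 and 0.0528 in CD11b+, 34.8-fold higher in iCD8a than in CD11b+ (33 to 36.7). Bax to Bak1 stood at 0.901, 0.981 and 0.515, and the difference between iCD8a and ILC1 was not detectable at this depth (1.09-fold, 0.965 to 1.23).

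**Figure D4:**
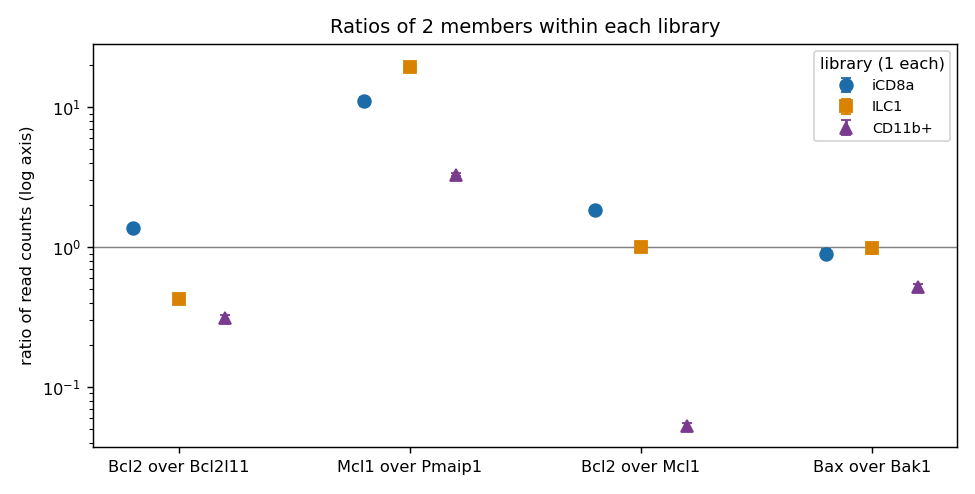
Ratio of the read counts of 2 members within each library (log axis), with 95% exact counting intervals as bars, mostly smaller than the points. All 4 ratios are lowest in CD11b+, and Bcl2 over Bcl2l11 is highest in iCD8a (1.38). Counts are not corrected for gene length, so the side of 1 on which a ratio lies does not rank the 2 transcripts.

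Of the 16 other BCL2 family genes listed, 14 had an ID in the files and 11 reached 1 CPM in any library. Bcl2a1a and Bcl2a1d were not analysed here. By comparison, 8, 9 and 8 of them were tested. In this list 2 genes were higher in iCD8a and 1 in ILC1, 0 in iCD8a and 2 in CD11b+, and 0 in ILC1 and 1 in CD11b+, with median log2 ratios of 0.45, 0.73 and 0.17. Over all genes tested, 20.3%, 37.2% and 38.0% were apart in the same order. The counts of this list and of those below are to be read beside these shares. Bcl2l13, at 115 CPM in iCD8a and 57.4 in CD11b+, lay at the threshold and was apart under 5 of the 6 other scalings or gene sets, which turns the 0 genes higher in iCD8a than in CD11b+ into 1 or, with Bcl2l15 under scaling by total count alone, 2. Bcl2a1b, which encodes a copy of the pro-survival protein A1, stood at 8.97 CPM for iCD8a, 46.9 for ILC1 and 51.3 for CD11b+. It was 5.23-fold lower in iCD8a than in ILC1 (4.5 to 6.09) and 5.72-fold lower than in CD11b+ (4.95 to 6.64). Reads of the A1 copies may be shared out or lost among nearly identical sequences, so this level is uncertain. Bcl2l14 stood at 1.48, 0.364 and 34.6 CPM and was 95.3-fold higher in CD11b+ than in ILC1 (48.2 to 221). Bcl2l15 (6.31 against 1.36 CPM, 4.63-fold) and Bnip3, a mitochondrial protein of hypoxia and mitophagy (9.69 against 4.54, 2.13-fold), were higher in iCD8a than in ILC1. The BH3-only gene Bmf was apart in 0 of 3 comparisons, at 71.3, 49.6 and 42.4 CPM, as was the guardian Bcl2l2, at 38.5, 28.1 and 23.9. Bcl2l10 was at 0 counts throughout, and its 95% counting interval reached up to 0.156, 0.168 and 0.131 CPM in the same order.

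Downstream of the pore, cytochrome c released from mitochondria assembles the apoptosome and activates caspases. Of 13 such genes, 12 were tested. Between iCD8a and ILC1, 1 was higher in iCD8a and 0 in ILC1, and the median log2 ratio of iCD8a over ILC1 was 0.41. Against CD11b+, 1 was higher in iCD8a and 2 in CD11b+, and 0 in ILC1 and 1 in CD11b+, with medians of 0.18 and -0.11. Casp2, an initiator caspase, was 2.2-fold higher in iCD8a than in CD11b+ (69.1 against 31.4 CPM). Casp6 was 3.07-fold higher in CD11b+ than in ILC1 (22.8 against 7.41). Apaf1, the scaffold of the apoptosome, was near level at 102, 120.1 and 114 CPM in iCD8a, ILC1 and CD11b+, and Casp9, the initiator it activates, stood at 29.9, 17.4 and 32.

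Genes of inhibitor of apoptosis proteins and their antagonists were apart in both directions. Over all genes tested, 20.3%, 37.2% and 38.0% were apart in the 3 comparisons. Of 10 genes, 1 was higher in iCD8a and 1 in ILC1 when these were compared, 2 in iCD8a and 2 in CD11b+, and 3 in ILC1 and 2 in CD11b+, with medians of -0.01, -0.27 and 0.1. Birc3, which encodes the ubiquitin ligase cIAP2, was lowest in iCD8a at 125 CPM, with 443 for ILC1 (3.54-fold, 3.39 to 3.69) and 261 for CD11b+ (2.08-fold, a call that ended when libraries were scaled by total count alone). Birc2, its partner cIAP1, was level between iCD8a and ILC1 (212 and 222 CPM) and 2.33-fold and 2.44-fold higher there than in CD11b+. Xiap, which blocks caspases directly, stood at 116, 113 and 114 CPM. Septin4, a gene whose isoform ARTS antagonises XIAP, was highest in iCD8a, at 38.3 CPM against 11.5 in ILC1 and 3.33 in CD11b+. The counts do not show which isoform was present.

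Death receptors feed into the family through caspase 8 and BID. Of 10 such genes, 0 were higher in iCD8a and 2 in ILC1 when these were compared, 2 in iCD8a and 2 in CD11b+, and 3 in ILC1 and 1 in CD11b+, with medians of -0.17, -0.01 and -0.14. Fas had 5 counts in iCD8a, 329 in ILC1 and 226 in CD11b+, a level 70.7-fold lower in iCD8a than in ILC1 (30 to 219). Its ligand Fasl was abundant in both lymphoid libraries, at 224 CPM in iCD8a and 228 in ILC1, and 11.4-fold and 11.6-fold lower in CD11b+ (19.7 CPM). Tnfrsf10b, the receptor for TRAIL, was 4-fold higher in ILC1 than in iCD8a (26.9 against 6.73) and 6.38-fold higher than in CD11b+. Casp8, counted with the caspases above, stood at 107, 153 and 92.1 CPM and was apart in 0 comparisons.

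Of 14 p53 pathway genes, 10 reached 1 CPM. Of these, 1 was higher in iCD8a and 1 in ILC1, 2 in iCD8a and 2 in CD11b+, and 2 in ILC1 and 2 in CD11b+, in the same order of comparisons, with medians of -0.48, 0.15 and 0.19. Cdkn1a, which encodes the cell cycle inhibitor p21, stood at 13.8 CPM for iCD8a, 173 for ILC1 and 414 for CD11b+, and Sesn2, a stress-induced sestrin, at 15.9, 29.9 and 162. Trp53inp1 was lowest in CD11b+, at 789 and 871 CPM in the lymphoid libraries and 89.3 in CD11b+. Trp53 itself was not apart, at 81, 118 and 66.9 CPM. The BH3-only genes that p53 is known to induce, Pmaip1 and Bbc3, differed in pattern from each other, with Pmaip1 highest in CD11b+ and Bbc3 highest in ILC1.

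FOXO factors are known to induce Bcl2l11 and Bbc3, and cytokine signalling through AKT and PIM kinases restrains them or BAD. Of 13 genes of this list, 1 was higher in iCD8a and 3 in ILC1, 3 in iCD8a and 1 in CD11b+, and 3 in ILC1 and 1 in CD11b+, with medians of -0.31, 0.34 and 0.77. Foxo1 stood at 349 CPM for iCD8a, 291 for ILC1 and 47.2 for CD11b+, 7.39-fold (6.98 to 7.84) and 6.16-fold (5.8 to 6.54) higher in the lymphoid libraries. Pim1 reached 2013 CPM in ILC1 and 1270 in CD11b+ against 322 in iCD8a, and Pim2 stood at 202 CPM for iCD8a, 419 for ILC1 and 32.5 for CD11b+. Under scaling by total count alone, Pim2 between iCD8a and ILC1 (2.07-fold) was no longer apart. Pik3ip1, which restrains PI3 kinase, was highest in iCD8a, at 51.4 against 18.7 and 10.5 CPM. Stat5b, a transducer of interleukin 15 signals, was at 145, 202 and 115 CPM and was not apart.

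Of 8 genes that act on MCL-1 stability, 6 reached 1 CPM and were tested. In each comparison 0 of these 6 were apart, with medians of -0.04, 0.28 and 0.55. Under scaling by total count alone or by upper quartiles Fbxw7 became apart between ILC1 and CD11b+, and under the former Gsk3b became apart between iCD8a and CD11b+. Huwe1, a ubiquitin ligase of MCL-1, stood at 377 CPM for iCD8a, 556 for ILC1 and 308 for CD11b+, and Usp9x, which removes ubiquitin from it, at 158, 241 and 147. Of 11 outer membrane channels and adaptors, 1 was higher in ILC1 than in iCD8a, 1 in iCD8a and 1 in CD11b+, and 1 in ILC1 and 0 in CD11b+, with medians of 0.16, -0.22 and -0.45. Bag3, a co-chaperone of the heat shock response that binds BCL-2, was 6.92-fold lower in iCD8a than in ILC1 and 7.45-fold lower than in CD11b+ (4.44, 30.8 and 33.1 CPM). Hspa1a and Hspa1b, heat shock genes of the dissociation list, stood at 124 and 283 CPM in iCD8a and 345 and 721 in ILC1, and their part in the Bag3 level was not tested. Vdac2, a channel that holds BAK, was at 126, 113 and 207 CPM and not apart.

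**Figure D5:**
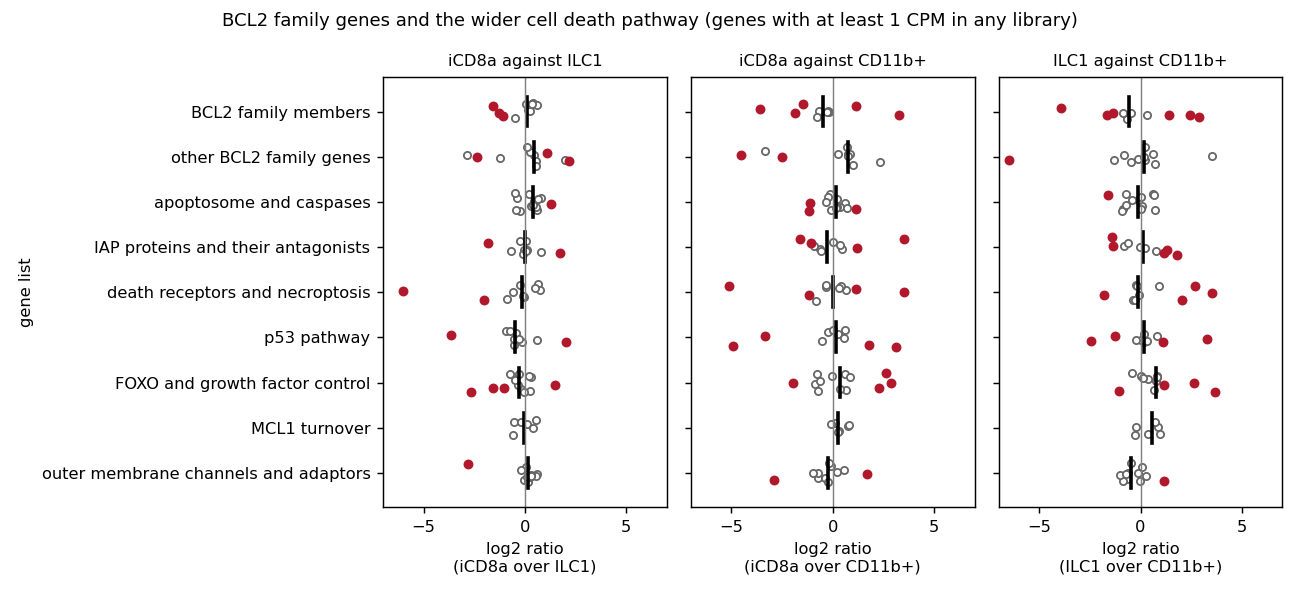
Log2 ratios of the members and of 8 further gene lists in the 3 comparisons, for genes that reached 1 CPM in a library, with red points for genes apart by the 2-fold rule and black lines at list medians. The MCL-1 turnover list, with 6 genes, has 0 red points in each panel, and the members' medians are 0.1, -0.48 and -0.59.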

How the data were processed

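RNA-seq libraries of 3 sorted populations, 1 each, took their group from the labelled cell type. The authors deposited raw read counts per Ensembl gene. Per the series' design text they aligned with TopHat and counted with HTSeq, and CASAVA 1.9 and TopHat2 appear in the submitters' processing notes. No source used here gives the build, annotation or strand setting. The 5 rows that name no gene stayed out. Alignments that were not unique were 26.9% (iCD8a), 34.5% (ILC1) and 30.5% (CD11b+) of all rows, reads in no gene 9.31%, 11% and 8.56%, and ambiguous reads 1.08%, 0.889% and 0.922%.

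Symbols and exon lengths came from GENCODE release M21 by Ensembl ID, which gave 35449 of 37224 IDs a length, and Septin4 was matched through a RefSeq synonym. TMM factors (edgeR 4.0.16, R 4.3.3) were 1.09, 0.992 and 0.925. Folds carry 95% exact conditional binomial (Clopper-Pearson) intervals (scipy 1.17.1), levels exact Poisson intervals. No molecular identifiers are recorded and reads may repeat a molecule, so these intervals describe counting error alone. List medians used a prior count of 0.5. With 1 library per group no test has residual degrees of freedom. Named were all members and, per list, comparison and direction, up to 4 genes apart with the largest near bound, with genes not apart as examples. Promoters are RefSeq's (GRCm38.p6). The Pmaip1 sequence and some genes of the lists are not reported here. Calls were checked on simulated Poisson counts with known folds. These hold no variation between samples or preparations, so the check covers the computation alone. Members and lists were chosen with earlier results of these data known. DESeq2 1.42.0 gave size factors as an alternative. Other alternatives were scalings, CPM minimums, a fold of 4, gene sets, thinned libraries, prior counts and lengths.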

Additional observations from a re-analysis of the deposited data

Results flagged for a closer look

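Alignments that were not unique lie outside the gene counts used here, and were singled out because they form a signal that no comparison used. Their share of all rows was 26.9% in the iCD8a library, and the ILC1 and CD11b+ libraries had 34.5% and 30.5%. How many of them belong to the BCL2 family was not tested.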

How the results depend on the processing

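The counts of members apart were 3 (iCD8a and ILC1), 5 (iCD8a and CD11b+) and 6 (ILC1 and CD11b+). They were the same with DESeq2 size factors, upper-quartile factors, mitochondrially encoded genes removed, the 50 most abundant genes removed, protein-coding genes only, other CPM minimums and thinned libraries. The CPM minimums could not change them. All 10 members reached 5 CPM in every comparison, and each one apart stood at 36.6 CPM or more in its higher library. Unscaled CPM gave 2 in place of 3, because Bbc3 stood at 1.94-fold. A fold of 4 gave 0, 2 and 3 members and 850, 2110 and 2036 genes in all, against 2051, 4028 and 4078. For iCD8a and ILC1, a CPM minimum of 20 gave 1272 genes and no minimum 3143. A change of scaling or gene set shifts all members of a comparison by the same factor, so their recomputed folds are not separate checks. Of 180 recomputed member folds, 179 kept their call. In 3 that were not apart the higher library changed: Bcl2l1 and Bid between iCD8a and CD11b+ under unscaled CPM (0.957 and 0.982) and Bax between iCD8a and ILC1 under upper-quartile factors (0.981). Unscaled CPM shifted the median over tested genes from 0.06 to 0.20 for iCD8a over ILC1, from 0.08 to 0.33 for iCD8a over CD11b+ and from 0.03 to 0.14 for ILC1 over CD11b+. Among the other pathway genes it ended the calls of Pim2 between iCD8a and ILC1, of Birc3, Casp6, Cycs and Tnfrsf1a between iCD8a and CD11b+, and of Akt1 between ILC1 and CD11b+, and reversed 0. It added Bcl2l13, Bcl2l15, Gsk3b and Tsc22d3 between iCD8a and CD11b+ and Fas and Fbxw7 between ILC1 and CD11b+. Upper-quartile factors ended the call of Akt1 too and added Fbxw7, and Bcl2l13 was added under every other alternative of scaling or gene set except DESeq2 size factors. List medians stayed within their list's quartiles in 103 of 108 recomputations, and the 5 others were all under unscaled CPM.

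Pro-survival shares moved with the length by construction. With the longest transcript, Bcl2 came to 43%, 26.3% and 2.33% in iCD8a, ILC1 and CD11b+, Bcl2l1 to 7.77%, 18.7% and 4.63%, and Mcl1 to 49.2%, 55% and 93%. As shares of counts without length, Bcl2 came to 62.2% (61.6% to 62.8%), 44.5% and 4.84%, Bcl2l1 to 4.01%, 11.3% and 3.43%, and Mcl1 to 33.8%, 44.2% and 91.7%. The 12 ratios within libraries stayed inside their intervals on thinning. This is a weak check, because iCD8a is the smallest library and was not changed, and the others were drawn from the same reads. No paired analysis was possible because each population has 1 library and no result comes from a test. Leaving out a replicate was not possible either.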
